A study of Mus musculus with 3 samples.

Results

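Lilrb4a, Lilr4b, Pirb, Pilra and Sirpa encode paired immunoglobulin-like receptors, and they are 5 of the 55536 annotated genes in the tables. They were taken by symbol as a named list. The list was selected on levels measured in these same libraries, since Lilrb4a and Lilr4b had been seen among the highest protein-coding genes. The levels of all 5 are therefore given as a description, without a test.

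Paired receptors are families of similar surface receptors in which some members inhibit a cell and others activate it. Inhibitory members carry immunoreceptor tyrosine-based inhibitory motifs (ITIMs) in the cytoplasmic tail, and these recruit phosphatases such as SHP-1, the product of Ptpn6, once they are phosphorylated. Activating members have a short tail and signal through adaptors such as the Fc receptor gamma chain or DAP12. On macrophages, Sirpa binds CD47 on other cells and restrains their uptake, and Pirb binds major histocompatibility class I molecules.

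The study measured RNA of the chromatin fraction of macrophages grown from bone marrow of C57BL/6J mice. All cells had received 100 ng/ml of lipid A, the part of lipopolysaccharide that TLR4 senses, for 15 min. The 3 libraries, replicates 1, 2 and 3, form 1 group made after depletion of ribosomal RNA, and no untreated library was analysed here, so no change with treatment is given. Starting RNA was 1 µg, 250 ng and 500 ng in replicates 1, 2 and 3. The labels number them as biological replicates, but all 3 share 1 donor label while their biosamples are listed apart, so the spread between them may be technical. Sex and age of the mice were not collected. Chromatin RNA holds transcripts that are still being made or spliced. In bulk RNA, a different number of cells and a different amount of RNA per cell cannot be told apart.

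Summed over all genes, expected counts (reads assigned to genes by a model) came to 10974934, 21376404 and 14376665 for replicates 1, 2 and 3. Protein-coding genes took 23.9%, 16.7% and 25.3% of the TPM (transcripts per 1000000, a level per length), so replicate 2 stood apart. All 10 macrophage markers had at least 1 TPM in every library, with summed levels of 899.6, 526 and 938 TPM. Of 21 markers of neutrophils, T and NK cells, B cells, and mast cells and basophils, 0 reached 1 TPM in every library. The neutrophil markers summed to 0.98, 1.29 and 0.71 TPM, with Elane, Mpo and Ly6g at 0 counts. Of 5 dendritic cell markers 0 reached 1 TPM in every library, but Ccr9 and Zbtb46 had mean levels of 1.62 and 1.32 TPM. In a second deposited quantification of the same libraries, 2 of 5 T and NK cell markers reached 1 TPM in every library, with Cd3d at 16.7, 11.5 and 20.2 TPM. There, 3 of 5 dendritic cell markers also reached 1 TPM in every library, with Ccr9 at 6.24, 2.17 and 4.82 TPM, Zbtb46 at 3.90, 1.95 and 3.31 TPM and Siglech at 3.06, 1.48 and 2.61 TPM. Mpo had 53.9, 77.1 and 101.3 estimated counts there. The part of other cells in the levels below was not tested.

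Lilrb4a, formerly gp49B, encodes an inhibitory receptor, and Lilr4b, formerly gp49A, encodes its close relative without an ITIM. Both lie on the plus strand of chromosome 10 (mm10, the GRCm38 assembly). Lilr4b (ENSMUSG00000112023.1) spans chr10:51480632-51486703 and Lilrb4a (ENSMUSG00000112148.1) spans chr10:51490956-51496611, 4253 bases further on. The annotated coding sequences, 1005 bases in Lilrb4a-201 and 909 bases in Lilr4b-201, aligned with 871 identical and 36 mismatched bases, an identity of 96.0%. Exon 3, which codes for immunoglobulin-like sequence, held 17 of the 36 mismatches, and exon 4 held 10. The stretch of 120 aligned coding bases with the most mismatches held 12, and it is printed because reads there can tell the paralogs apart. It is shown here from chr10:51491505-51491624 for Lilrb4a and chr10:51481211-51481330 for Lilr4b, with the differing bases in capitals.
Lilrb4a-201: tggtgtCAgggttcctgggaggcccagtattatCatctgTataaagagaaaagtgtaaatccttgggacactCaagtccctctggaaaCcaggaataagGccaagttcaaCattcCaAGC
Lilr4b-201: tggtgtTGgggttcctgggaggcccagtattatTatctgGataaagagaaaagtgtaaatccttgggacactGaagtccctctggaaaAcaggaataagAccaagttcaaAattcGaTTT

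The longest coding run identical in both genes was 126 bases, which crosses from exon 3 into exon 4 of Lilrb4a-201 at chr10:51491665-51491932. A read inside this run fits both genes equally well. The run is also found in Gm49339-203, an isoform of the readthrough gene described below, so such a read fits that gene too.
Both paralogs: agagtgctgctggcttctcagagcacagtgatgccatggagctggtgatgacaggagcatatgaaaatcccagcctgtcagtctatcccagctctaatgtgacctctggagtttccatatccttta

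The coding ends differ, and they carry the difference in signalling parts. The last 98 coding bases of Lilrb4a-201 had no partner in the coding sequence of Lilr4b-201. Lilr4b-201 held 2 coding bases without a partner in Lilrb4a-201, which shift its reading frame. Its bases aligned to the first ITIM stretch of Lilrb4a-201 are read in another frame, and its coding sequence ends among them. Sequence of Lilr4b-201 after its coding end was not part of this alignment. Both ends are shown from coding base 850, with capitals for codons that fit the ITIM consensus in the reading frame. They lie at chr10:51494831-51496241 in Lilrb4a and chr10:51484555-51485757 in Lilr4b, with introns left out.
Lilrb4a-201: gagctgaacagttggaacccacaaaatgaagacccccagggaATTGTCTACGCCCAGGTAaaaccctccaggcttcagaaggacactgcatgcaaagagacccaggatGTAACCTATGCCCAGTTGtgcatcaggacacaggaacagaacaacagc
Lilr4b-201: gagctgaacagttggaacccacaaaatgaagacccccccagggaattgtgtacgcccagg

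In the last 399 coding bases, 2 stretches of codons of Lilrb4a-201 and 0 of Lilr4b-201 fit the ITIM consensus. The same search found 3 in Pirb-201, 2 in Pilra-201 and 4 in Sirpa-201. Of 20282 protein-coding genes with at least that much coding sequence, 24.2% held at least 1 such stretch, so a match alone does not mark a receptor.

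A readthrough gene, Gm49339, spans both paralogs at chr10:51480612-51496613. Its annotated transcripts begin with the first exon of Lilr4b and continue with the exons of Lilrb4a from the second one on. The junction of coding exons 1 and 2 is shown for the 3 genes, since it is where the readthrough gene joins one paralog to the other. It joins base 51491051 to base 51491197 of chromosome 10 in Lilrb4a-201, base 51480753 to base 51491197 in Gm49339-203, and base 51480753 to base 51480906 in Lilr4b-201. The capital marks the 1 position that differs among the sequences.
Lilrb4a-201: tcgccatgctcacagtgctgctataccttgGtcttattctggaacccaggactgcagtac
Gm49339-203: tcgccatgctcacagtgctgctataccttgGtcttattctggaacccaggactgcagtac
Lilr4b-201: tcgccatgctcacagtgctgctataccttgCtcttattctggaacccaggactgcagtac

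The junctions of Lilrb4a-201 and Gm49339-203 were identical, and so were their coding sequences of 1005 bases. The whole of Lilrb4a-201, 1381 bases, was found inside Gm49339-203, which has 1441 bases. The shorter coding isoform Lilrb4a-212, 1279 bases, was likewise found whole inside the other coding isoform of Gm49339, which has 1340 bases. A read whose sequence fits either of these Lilrb4a isoforms therefore also fits the readthrough gene. In the tables, Lilrb4a-201 and Lilrb4a-212 were listed at 0 expected counts in all 3 libraries. The 2 coding isoforms of Gm49339 together held 977, 1072 and 1197 expected counts. All 4 protein-coding isoforms of Lilrb4a held 0, 1.21 and 1.23 expected counts. Spliced, coding RNA of Lilrb4a and of Gm49339, taken as 1 class, made up 1.25%, 1.43% and 1.49% of the expected counts of the 3 genes. The spliced coding sequence of Lilrb4a thus appears in the tables under the name Gm49339, and from which of the genes those reads came cannot be told apart.

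**Figure D1:**
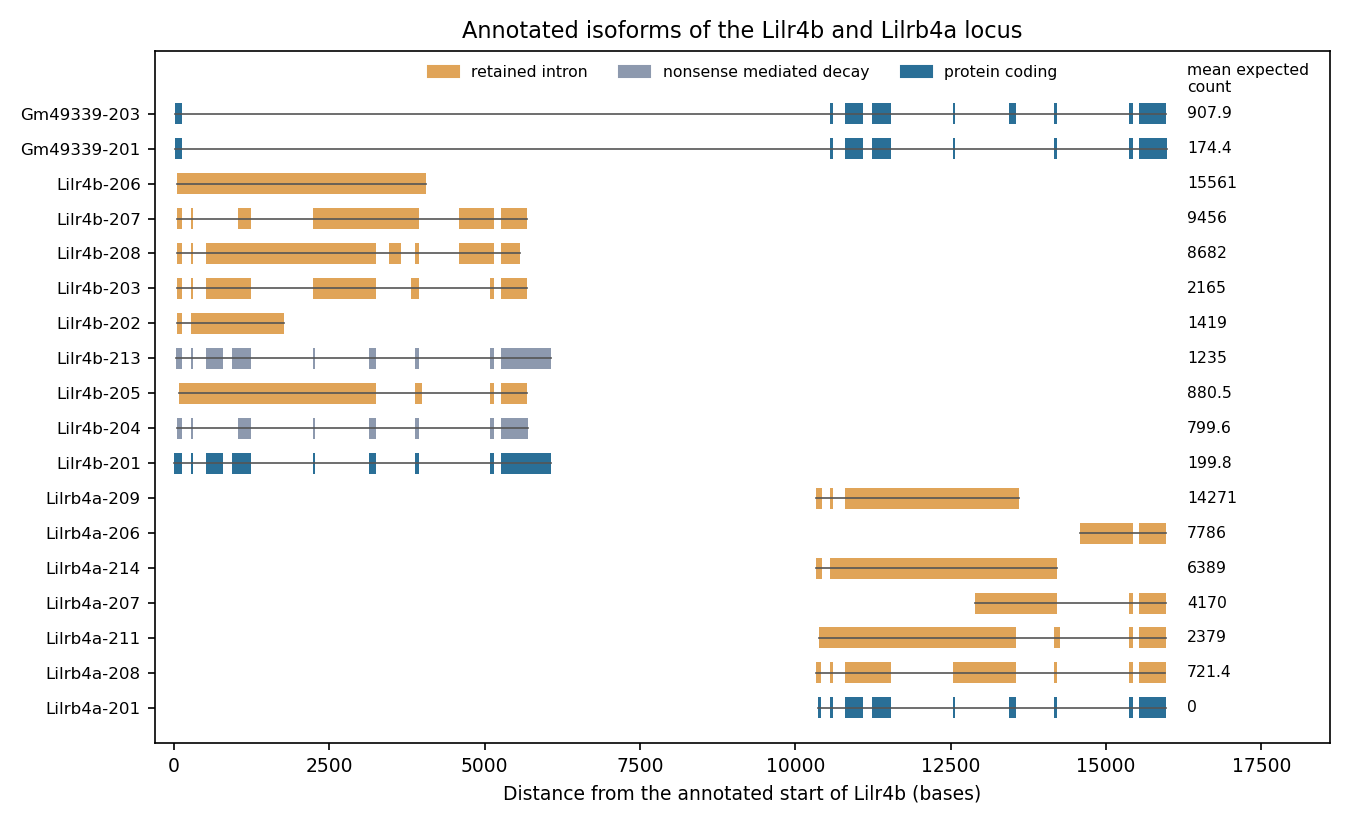
Annotated isoforms of Gm49339, Lilr4b and Lilrb4a, drawn as exons (boxes) by distance in bases from the annotated start of Lilr4b, coloured by annotated class, with the mean expected count over 3 libraries at the right. Isoforms with a mean count of at least 200 and the main coding isoforms are drawn; Lilrb4a-201 is listed at 0, while Gm49339-203, which contains its sequence, has 907.9.

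At the level of whole genes, Lilrb4a had 1353, 540 and 1238 TPM in replicates 1, 2 and 3, a mean of 1044 ± 439.8 TPM (SD, n = 3). Lilr4b had 1006, 470.4 and 991 TPM, a mean of 822 ± 305 TPM (SD, n = 3). Replicate 2 was lowest for both, by 2.51 and 2.14 times against the highest library. Among 22028 protein-coding genes Lilrb4a ranked 1, 7 and 2 and Lilr4b ranked 3, 10 and 3 in replicates 1, 2 and 3. Lilrb4a was above Lilr4b in each library, but the ranges over the libraries overlapped. In the second quantification, Lilrb4a had 1989, 664 and 1538 TPM, and Lilr4b had 1174, 469.6 and 959 TPM. There Lilrb4a ranked 3, 11 and 4 and Lilr4b ranked 10, 26 and 9.

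The order of the paralogs depended on the unit. By expected counts Lilrb4a had 37455, 32851 and 37395, and Lilr4b had 39601, 40900 and 41627. Lilrb4a thus took 48.6% of the counts of both genes in replicate 1, 44.5% in replicate 2 and 47.3% in replicate 3 (46.8% ± 2.08, SD, n = 3). The 95% Clopper-Pearson intervals, which cover counting error only, were 48.25% to 48.96%, 44.18% to 44.9% and 46.97% to 47.67%. They do not cover the error of dividing shared reads. By TPM, which divides by the effective length of the isoforms used, Lilrb4a took 57.4%, 53.4% and 55.5%. The effective length was 2036, 1921 and 1928 bases for Lilrb4a and 2897, 2746 and 2680 bases for Lilr4b. In the second quantification Lilrb4a took 54.3%, 49.3% and 52.8% of the estimated counts of both genes, so it was above Lilr4b in 2 of 3 libraries by counts there and in 0 of 3 by counts in the gene tables.

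The summed count of both genes does not depend on how reads were divided between the pair, though reads shared with Gm49339 can still move it. The pair held 77056, 73750 and 79023 expected counts. Their summed TPM was 2358, 1010 and 2229 (1866 ± 743.7, SD, n = 3), and this sum does depend on the division, since each gene is divided by its own effective length. The counts of the pair differed little between libraries, while the depth of replicate 2 was the highest, so the pair took 0.702%, 0.345% and 0.55% of all counts in replicates 1, 2 and 3. The readthrough gene added 1066, 1207 and 1351 expected counts, or 1.37%, 1.61% and 1.68% of the counts of the 3 genes. Adding it to Lilrb4a gave Lilrb4a 49.3%, 45.4% and 48.2%.

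Much of the sequence at this locus was shared, while the deposited estimate of the ambiguity was a small percent of the count for both paralogs. Of the distinct 31-base windows of all Lilrb4a isoforms, 43.9% were found in no other annotated gene, 39.1% were also in Lilr4b and 34.95% in Gm49339. For Lilr4b, 62.7% were found in no other gene. With windows of 100 bases, these unique shares were 64.8% and 91.2%. For Gm49339 they were 2.53% at 31 bases and 5.94% at 100 bases. The deposited posterior SD of the gene count, which scores how far the count could move when ambiguous reads are reassigned, was 45.4, 43.8 and 45.8 reads for Lilrb4a. It was 35.8, 29.8 and 31.2 reads for Lilr4b. As a percent of the count it averaged 0.126% for Lilrb4a, 0.0794% for Lilr4b and 2.69% for Gm49339. Of 7260 protein-coding genes with at least 100 expected counts in every library, 65.3% had a posterior SD of 0 throughout. A lower percentage than that of Gm49339 was found in 97.95% of them, than that of Lilrb4a in 77.7% and than that of Lilr4b in 75.0%. The posterior SD does not cover the difference between the 2 quantifications. An antisense gene, Gm40645, spans all of Lilrb4a on the minus strand (chr10:51489530-51522447), with 874 bases in exons, and had 15, 6 and 10.01 expected counts. The use of strand is not given in the sources used here, so reads of Lilrb4a and Gm40645 cannot be told apart where their exons overlap. Searched on both strands, 1.86% of the 31-base windows of Lilrb4a and 0.544% of its 100-base windows occurred in Gm40645.

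Nearly all of the signal of the Lilr pair lay in isoforms annotated as retaining an intron, transcripts that keep a stretch normally spliced out. In chromatin RNA, intronic reads of such isoforms and of transcripts not yet spliced cannot be told apart. The shares below are therefore shares of annotated classes. The 9 retained-intron isoforms of Lilrb4a held 99.9% ± 0.0948 of its TPM (SD, n = 3). The 8 of Lilr4b held 86.9%, 86.4% and 84.8%. In Lilrb4a 4 isoforms led, Lilrb4a-206 with 40.5% ± 1.25 of the gene's abundance in the authors' isoform percentages, Lilrb4a-209 with 29.01% ± 1.11, Lilrb4a-207 with 14.3% ± 1.91 and Lilrb4a-214 with 9.92% ± 1.97 (SD, n = 3 each). By counts Lilrb4a-209 was first, with 13869, 13681 and 15262, and the shorter Lilrb4a-206 second, with 8223, 6944 and 8190. The second quantification reversed this order in every library, with 22620, 19194 and 23342 estimated counts for Lilrb4a-206 and 12464, 13275 and 14000 for Lilrb4a-209. Lilr4b-206, a single exon of 4004 bases that runs through 6 introns of the coding model, had 17376, 14528 and 14779 expected counts. The 2 protein-coding isoforms of Lilr4b had 283, 183 and 295.9 counts together, 1.25% ± 0.301 of its TPM (SD, n = 3). The 2 isoforms of Lilr4b annotated as targets of nonsense-mediated decay held 12.2% ± 0.808 of its TPM (SD, n = 3).

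These shares were high among all genes. Over 6504 protein-coding genes that have such an isoform and a mean of at least 1 TPM, the median share of retained-intron isoforms was 47.6% of TPM. The share was lower than that of Lilrb4a in 99.8% of these genes, lower than that of Lilr4b in 96.2%, lower than that of Pirb in 90.6% and lower than that of Sirpa in 69.8%. The annotation itself also differs between the genes. Annotated isoforms cover 89.8% of the intron bases of the coding model Lilrb4a-201 and 85.1% of those of Lilr4b-201, against 12.4% for Pirb, 4.25% for Pilra and 1.90% for Sirpa. Exons of any isoform cover 92.4% of the span of Lilrb4a and 89.6% of that of Lilr4b, against a median of 18.3% over the 7260 genes, where 98.0% and 97.7% of genes had a lower coverage. An intronic read can be counted for a gene only where an annotated isoform includes that stretch. Weighted by abundance, 67.1% ± 0.342 of the sequence assigned to Lilrb4a and 64.7% ± 0.961 of that assigned to Lilr4b was intronic in the coding model (SD, n = 3 each). The part of this annotation in the rank of the Lilr pair was not tested.

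**Figure D2:**
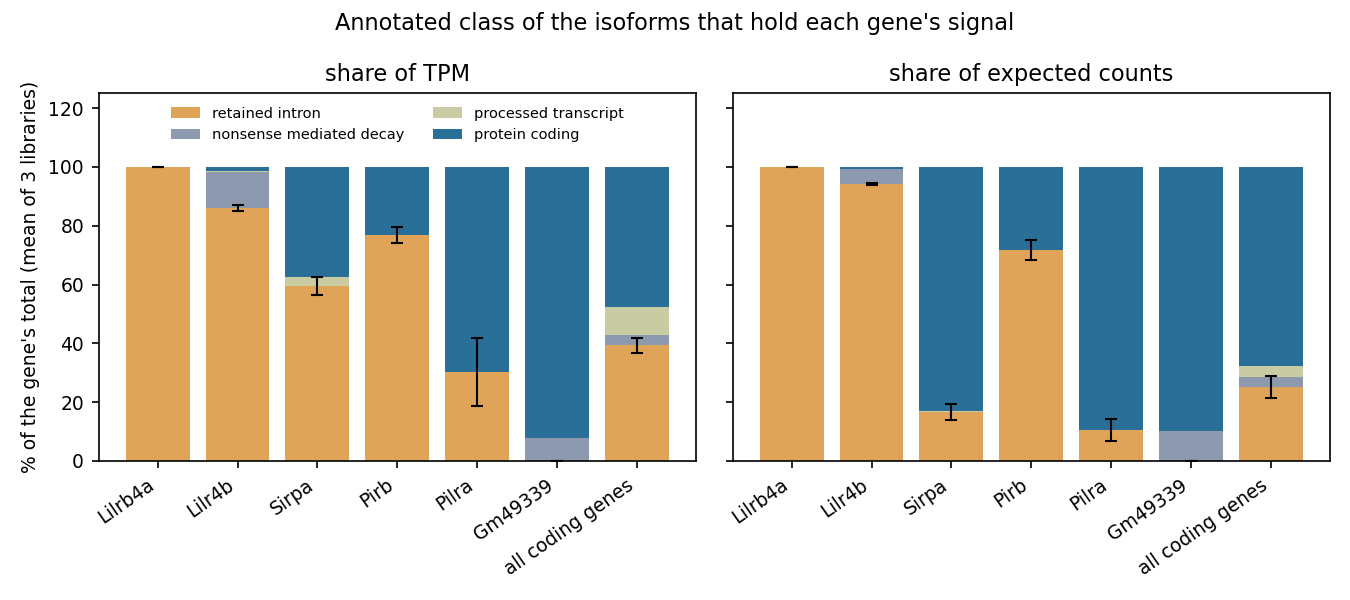
Share of each gene's TPM (left) and expected counts (right) in isoforms of each annotated class, as stacked bars of the mean of 3 libraries, with error bars of 1 SD on the retained-intron share. Retained-intron isoforms hold 99.9% of the TPM of Lilrb4a and 86.1% of that of Lilr4b, against 39.3% over all protein-coding genes; for Sirpa the share is 59.5% of TPM and 16.5% of counts.

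When only isoforms of the protein-coding class were added up, the order of the genes was another one. Sirpa had 186, 145 and 231.7 TPM in replicates 1, 2 and 3, and Pirb had 53.3, 33.0 and 57.7 TPM. Gm49339, whose coding sequence is that of Lilrb4a, had 59.0, 28.5 and 65.0 TPM, which overlaps Pirb. Lilr4b had 14.4, 4.25 and 14.1 TPM, below both in every library. This sum leaves out Lilr4b-213 and Lilr4b-204, annotated as targets of nonsense-mediated decay, which hold only 5 intronic bases each. Lilr4b-213 had 66.2, 20.7 and 50.8 TPM, and Lilr4b-204 had 49.0, 36.2 and 78.7 TPM. In each library the higher of these lay above the coding sums of Gm49339 and Pirb. The low place of Lilr4b thus holds for the protein-coding class only, not for all its spliced RNA. Pilra had 0.96, 0.66 and 0.31 TPM, and Lilrb4a under its own name had 0, 0.3 and 0.62 TPM. This summary was added after the data had been seen.

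**Figure D3:**
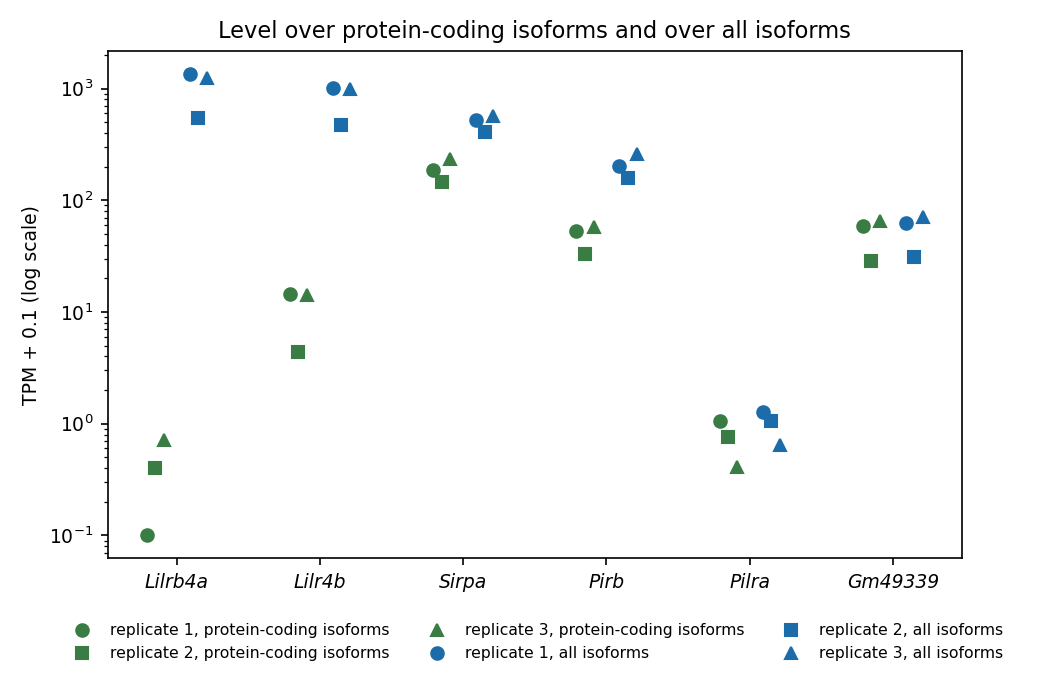
Level of each gene in TPM plus 0.1 on a log axis, over its protein-coding isoforms (green) and over all its isoforms (blue), with 1 marker per library. Lilrb4a lies at 540 to 1353 TPM over all isoforms and at 0 to 0.62 TPM over its protein-coding ones, while Gm49339 changes little between the 2 sums.

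Sirpa, the inhibitory receptor for CD47, lay below both Lilr genes by mean level. It spans chr2:129592835-129632228 on the plus strand (ENSMUSG00000037902.18). It had 522.6, 409 and 562.5 TPM, a mean of 498 ± 79.6 TPM (SD, n = 3), and ranks 16, 15 and 15 among protein-coding genes. Its expected counts were 10127, 18766 and 14362, in the order of the libraries' depth, whereas those of the Lilr pair were nearly level. In each library Lilr4b was higher, by 1.92, 1.15 and 1.76 times, but the ranges overlapped through replicate 2. Its sequence was nearly its own, with 99.96% of 31-base windows found in no other gene, and its posterior SD was 0 in all libraries.

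The level of Sirpa rested on 1 short isoform. Sirpa-212, 642 bases long and annotated as retaining an intron, held 62.1%, 60.4% and 56.1% of the gene's TPM but 19.1%, 16.7% and 13.7% of its counts. Without it Sirpa summed to 198, 162 and 246.9 TPM. Its 9 protein-coding isoforms held 8162, 15541 and 12358 expected counts, 83.2% ± 2.74 of the gene (SD, n = 3). In the second quantification Sirpa had 1280, 681.7 and 1005 TPM, 989 ± 299.5 on average (SD, n = 3), and lay above Lilr4b in all 3 libraries and above Lilrb4a in replicate 2. There, processed transcripts without a coding sequence held 38.5%, 26.5% and 25.2% of its TPM, against 2.28%, 4.08% and 2.71% in the gene tables' isoforms. Which quantification is nearer to the true level was not tested.

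**Figure D4:**
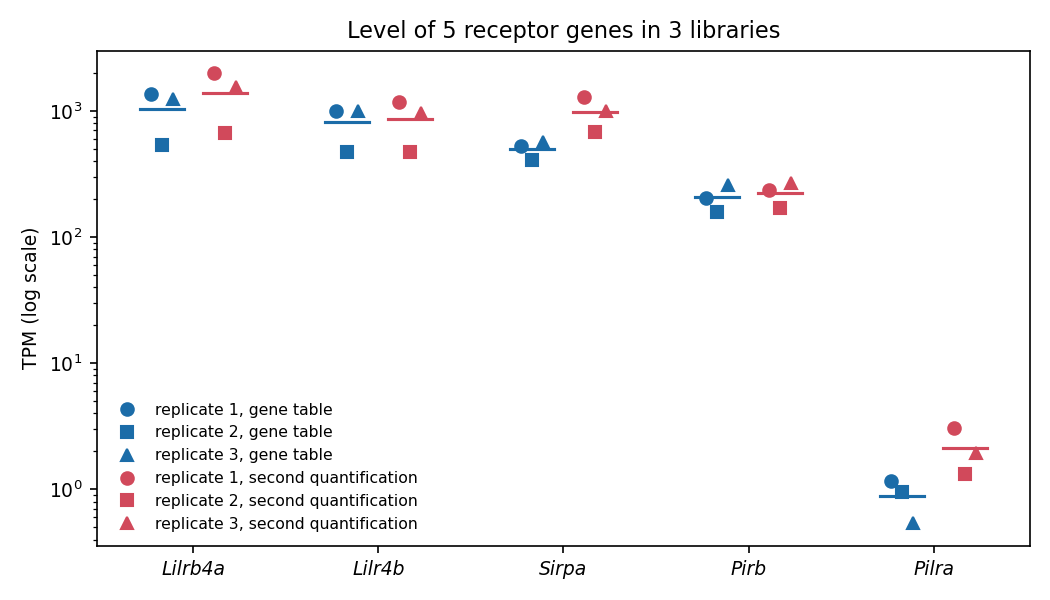
Level in TPM on a log axis of the 5 genes in the gene tables (blue) and in the second quantification (red), with 1 marker per library and a line at the mean. In the gene tables the order Lilrb4a, Lilr4b, Sirpa, Pirb, Pilra holds in each library; in the second quantification Sirpa lies above Lilr4b, at a mean of 989 TPM.

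Pirb encodes an inhibitory receptor with extracellular immunoglobulin-like domains, and its activating partners are the Pira genes beside it. It spans chr7:3711409-3720391 on the minus strand (ENSMUSG00000058818.13). It had 203, 158 and 260.4 TPM, a mean of 207 ± 51.5 TPM (SD, n = 3), and ranks 121, 109 and 76. Its range did not overlap that of Sirpa, whose TPM was 2.58, 2.59 and 2.16 times that of Pirb in replicates 1, 2 and 3. The second quantification gave 238, 170.4 and 266.5 TPM. Retained-intron isoforms held 73.7%, 79.1% and 77.8% of its TPM, led by Pirb-202 with 2315, 6173 and 4421 expected counts. These isoforms keep few intron bases, however, and 9.19% ± 0.237 of the sequence assigned to Pirb was intronic in the coding model (SD, n = 3). The 1 protein-coding isoform, Pirb-201, had 2625, 3742 and 3239 expected counts.

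Exons 2 to 8 of Pirb shared sequence with the relatives searched and the later exons, which include the tail, did not. The coding exons of Pirb-201 were searched in windows of 31 bases against the transcripts of 6 relatives on chromosome 7, Gm14548, Gm15448, Gm15922, Lilra5, Lilra6 and Pira2. All windows of exons 2, 7 and 8 were found in a relative, and 40.9% to 80.8% of those of exons 3 to 6. Of the windows of exons 9 to 15, which code for the rest of the receptor up to its end, 0 were found in them. The longest coding run shared was 523 bases with Gm14548 and 477 bases with Pira2. Over all Pirb isoforms, 55.9% of the distinct 31-base windows and 79.2% of the 100-base windows were found in no other annotated gene. Gm15925, which was not among the relatives searched by exon, held 6.61% of the 100-base windows. The posterior SD of Pirb averaged 0.091% of its count. The stretch shown first, coding bases 1379 to 1498 at chr7:3716648-3716767, occurs whole in transcripts of Gm14548 and of Pira2. The stretch shown second is the last 120 coding bases, at chr7:3712654-3712773, with capitals for codons that fit the ITIM consensus. Of its windows, 0 occur in the relatives.
Pirb, shared stretch: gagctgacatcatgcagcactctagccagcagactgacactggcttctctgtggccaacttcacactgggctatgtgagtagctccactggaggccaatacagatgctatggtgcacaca
Pirb, coding end: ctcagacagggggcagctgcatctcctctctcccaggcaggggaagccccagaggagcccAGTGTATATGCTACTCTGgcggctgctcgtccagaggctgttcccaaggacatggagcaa

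**Figure D5:**
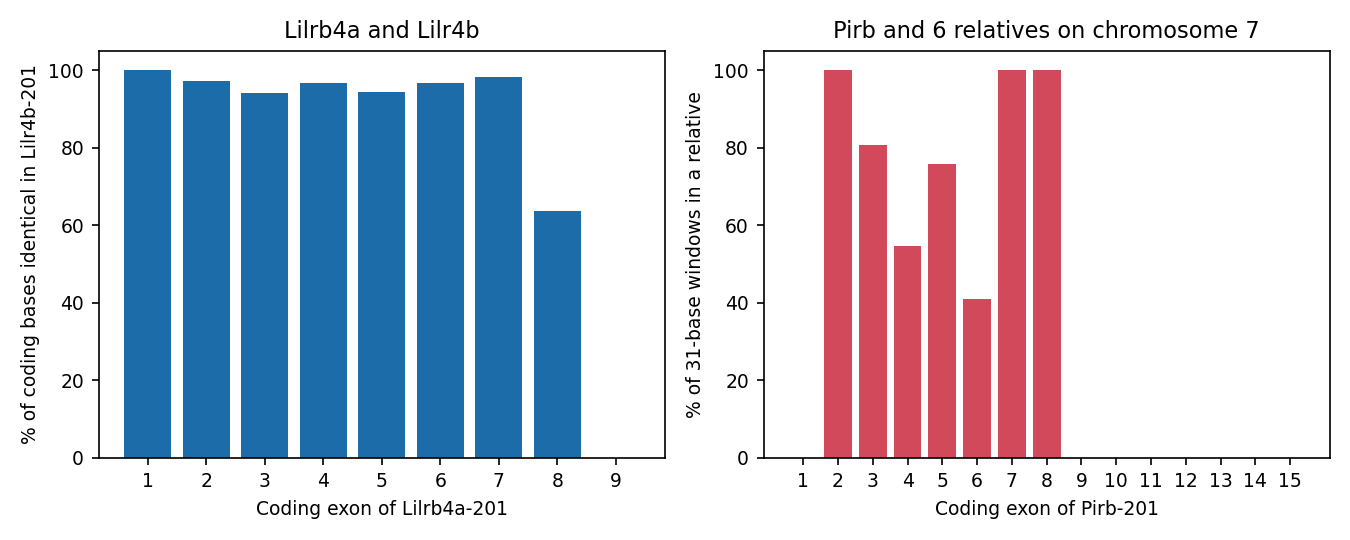
Left, the percent of coding bases of each exon of Lilrb4a-201 that are identical in the aligned coding sequence of Lilr4b-201. Right, the percent of 31-base windows of each coding exon of Pirb-201 found in a transcript of 6 relatives. Exon 9 of Lilrb4a-201 has no aligned coding base in Lilr4b-201, and exons 9 to 15 of Pirb-201 have 0 shared windows.

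Pilra, an inhibitory receptor that recognises sialylated proteins, was low. It spans chr5:137821952-137836281 on the minus strand (ENSMUSG00000046245.13). It had 1.17, 0.95 and 0.54 TPM from 23.5, 33.5 and 13.1 expected counts, a mean of 0.887 ± 0.32 TPM (SD, n = 3). It was the only one of the 5 genes below 1 TPM in any library: 4 of 5 reached 1 TPM in every library, against 42.4% of all protein-coding genes. Since the genes were named with levels known, nothing is read from that share. In the second quantification Pilra had 3.05, 1.32 and 1.96 TPM. Its last 670 bases overlap Zcwpw1, a gene of the opposite strand with 1.58, 1.66 and 1.84 TPM, and 14.0% of its 31-base windows were also in that gene. At such counts the differences between libraries and between isoforms of Pilra were not resolved.

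The relatives of these receptors were lower than Pirb and Sirpa. Of 23 listed genes 13 matched a symbol of the annotation, and 6 of these, 46.2%, had at least 1 TPM in every library, near the 42.4% of all protein-coding genes. Summed, the 13 relatives had 53.5, 30.3 and 59.1 TPM, below the level of Pirb alone in each library. Around Pirb, the polymorphic pseudogene Gm15922 had 18.2, 8.36 and 19.3 TPM. Pira2, which encodes an activating receptor, had 12.9, 7.1 and 16.1 TPM. Gm14548 had 8.63, 7.16 and 11.2 TPM, Gm15448 had 3.21, 2.03 and 5.22 TPM, and Lilra6 had 2.12, 0.96 and 1.96 TPM. Lilra5 had 2 expected counts in replicate 1 and 0 in the others. Counts of these genes are uncertain, since they share the windows above with Pirb and with each other, and their posterior SD reached 5.90% of the count for Pira2 in replicate 1.

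Beside Pilra, the activating partners Pilrb1 and Pilrb2 were at or above it. Pilrb2 had 2.78, 2.11 and 2.21 TPM and Pilrb1 had 2.93, 1.54 and 1.86 TPM, against 1.17, 0.95 and 0.54 TPM for Pilra. By TPM both activating genes were thus higher than the inhibitory one in every library, on 22 to 49.55 expected counts. The second quantification kept this order by TPM but not by estimated counts. Pilra had 78.2, 85.85 and 75.1 counts there, against 64.3, 73.4 and 40.8 for Pilrb1 and 76.7, 91.5 and 79.2 for Pilrb2. Of the 31-base windows of Pilra, 8.39% were also in Pilrb1 and 7.22% in Pilrb2, so some reads may fit more than 1 of these genes. The activating relatives of Sirpa were near the limit of detection in the gene tables. Sirpb1c averaged 0.59 TPM, Sirpb1b 0.477 TPM, Gm5150 0.443 TPM and Sirpb1a 0.16 TPM, against 498 TPM for Sirpa, and Gm9733 had 0 counts in each library, where a count of 0 allows up to 3 counts.

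Summed over all isoforms, other inhibitory receptors of myeloid cells were present at lower levels than the Lilr pair. The Lilr sums are mostly intronic sequence, and over protein-coding isoforms alone Lilr4b averaged 10.9 TPM. Neither measure was computed for the receptors listed here, so the order of coding RNA is not given. Of 16 listed, 11 (68.8%) had at least 1 TPM in every library, against 42.4% of all protein-coding genes, with a median of 12.2 TPM for the means, against 0.567 TPM over all protein-coding genes. Fcgr2b, the inhibitory receptor for IgG, had 312, 110.7 and 244.8 TPM. Cd300lf, which binds lipids, had 87.3, 60.1 and 106 TPM, and Cd300a, also a lipid receptor, had 55.0, 32.0 and 61.7 TPM. Siglecg, a receptor for sialic acid, had 0.05, 0.03 and 0.02 TPM. Pdcd1, which encodes the T cell checkpoint receptor PD-1, had 0 counts in each library.

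The signalling partners were detected on both sides. All 3 adaptors of activating receptors had at least 1 TPM in every library, as did 42.4% of all protein-coding genes. Fcer1g, the Fc receptor gamma chain used by Pira, had 19.9, 19.3 and 29.2 TPM, Tyrobp, which encodes DAP12, had 15.9, 17.3 and 19.2 TPM, and Hcst, which encodes DAP10, had 5.97, 3.73 and 4.68 TPM. Of 9 phosphatases and kinases, 7 (77.8%) reached 1 TPM in every library, against the same 42.4%. Syk, the kinase of activating signals, had 197, 148 and 211 TPM. Inpp5d, the lipid phosphatase SHIP-1, had 143, 150.6 and 175.6 TPM, and Lyn, a kinase that phosphorylates ITIMs, had 79.7, 40.7 and 77.9 TPM. Ptpn6, which encodes SHP-1, had 23.5, 26.8 and 37.8 TPM. The related kinases Src and Fgr averaged 0.87 and 0.24 TPM. In the second quantification Fcer1g had 65.4, 68.7 and 71.1 TPM, Tyrobp 61.5, 47.25 and 71.2 TPM and Hcst 33.9, 22.4 and 28.2 TPM. Ptpn6 had 70.5, 65.1 and 89.0 TPM there, whereas Syk, at 229, 155 and 220.5 TPM, differed less.

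Of 17 matched ligand genes, 12 (70.6%) had at least 1 TPM in every library, against 42.4% of all protein-coding genes. H2-K1 and H2-D1, class I molecules of the kind that Pirb binds, were the highest. H2-K1 had 374, 179.8 and 375 TPM, and H2-D1 had 341, 279 and 307 TPM. Rtn4, which encodes the Pirb ligand Nogo, had 63.4, 28.1 and 54.8 TPM. Cd47, the ligand of Sirpa, had 25.4, 16.9 and 30.1 TPM, below Sirpa in every library. The surfactant protein genes Sftpa1 and Sftpd, whose products bind Sirpa, had 0 expected counts in each library. In the second quantification Sftpd had 6, 11 and 18 estimated counts and Sftpa1 had 0 in each library.

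The spread between libraries depended on the scaling and on replicate 2. After each library was scaled to the same protein-coding TPM, the SD of log2(TPM + 1) was 0.42 for Lilrb4a, 0.31 for Lilr4b, 0.14 for Pirb and 0.090 for Sirpa, beside a median of 0.25 over 10251 protein-coding genes with a mean of at least 1 TPM. Of these genes 80.8% had a lower SD than Lilrb4a, 62.5% than Lilr4b, 21.4% than Pirb and 10.5% than Sirpa. Replicate 2 was the low library for the Lilr pair, at 711 scaled TPM for Lilrb4a, against 1243 and 1074 in replicates 1 and 3. Without replicate 2 the SD was 0.15 for Lilrb4a, 0.073 for Lilr4b, 0.20 for Pirb and 0.016 for Sirpa, so Pirb was then above both Lilr genes. With DESeq2 size factors the SD was 0.31 for Lilrb4a, 0.20 for Lilr4b, 0.20 for Pirb and 0.23 for Sirpa, so the order below Lilrb4a was not kept. Replicate 2 also had the least starting RNA, the most counts and the lowest protein-coding share, and the part of these in its level was not tested.

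By pattern over the 3 libraries, the protein-coding genes nearest to Lilrb4a were Gpnmb, at a Euclidean distance of 0.48 in scaled log2(TPM + 1), Lilr4b at 0.57 and Sat1 at 0.76. Gpnmb, which encodes a glycoprotein of macrophages, had 1191, 712 and 1410 TPM. Nearest to Lilr4b were Sat1, Ddx5 and Hnrnpa2b1, at 0.29, 0.45 and 0.46. The distance mixes level and pattern and rests on 3 libraries. The protein-coding genes on either side of the locus, Sim1 at 491480 bases and Fam162b at 88805 bases, had 0 counts in each library. On chromosome 2 the neighbours of Sirpa, F830045P16Rik and Pdyn, averaged 0.0867 and 0 TPM. Rps9, a ribosomal protein gene 4512 bases from Pirb, had 53.3, 48.5 and 66.5 TPM, and Mepce, on the far side of Zcwpw1 from Pilra, had 4.31, 3.04 and 5.58 TPM.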

How the data were processed

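The deposited gene and transcript tables of 3 libraries were used. Per the file headers they hold expected counts (estimates with decimals), TPM, the percent of each gene's abundance in each isoform, and a posterior SD of the count, used as a score of ambiguity. A further deposited transcript table gave estimated counts and TPM, called the second quantification, and was summed per gene. Coordinates are mm10, per the labels, with GENCODE M21 genes, per the deposited notes, and all 55536 gene IDs matched that annotation. For the aligner, quantification programs, read length and strand setting, nothing is given in the sources used here. Per-sample columns without a sample numbered 0.

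The members and lists were chosen with earlier results of these data known. Named are the 5 genes, all matched relatives, the 3 highest and 2 lowest genes of each list, overlapping and neighbouring genes, and the 3 nearest genes by pattern. Cd47, Ptpn6 and the markers named were added after their values were seen. With 1 group, no test was made. Depth was 10974934 to 21376404 expected counts per library. Intervals (95%, Clopper-Pearson) and the floor of 3 counts cover counting error only. Sequence windows of 31 and 100 bases were searched on both strands of all GENCODE M21 transcripts (the windows by Pirb exon on the transcript strand), and coding sequences were aligned with Biopython 1.88. Counts were rounded for TMM factors (edgeR 4.0.16) and DESeq2 1.42.0 size factors in R 4.3.3, used as alternatives only. Other steps ran in Python 3.11.15, and the computation of the spread between libraries was tested on simulated data.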

Additional observations from a re-analysis of the deposited data

How the results depend on the processing

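Of 81 values recomputed under another setting, 51 stayed within the spread between libraries or within 1.5 times, and 30 did not. For levels, the second quantification gave 2.11 TPM for Pilra and 989 TPM for Sirpa. Protein-coding isoforms alone, an alternative chosen after seeing the data, gave 0.307 TPM for Lilrb4a, 10.9 for Lilr4b, 48.0 for Pirb and 187.8 for Sirpa. The order kept 3 of 5 places in the second quantification and 0 with protein-coding isoforms alone. The Lilrb4a share of both paralogs was 55.5% by TPM, 52.1% in the second quantification and 0.357% over protein-coding isoforms. By its construction this last value leaves out Gm49339. The retained-intron share was 94.2% by counts and 90.2% in the second quantification for Lilr4b, 71.7% and 80.7% for Pirb, and 16.5% and 39.4% for Sirpa, and it was 10.6% by counts for Pilra.

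The spread (SD of log2) with TPM as deposited was 0.73 for Lilrb4a, 0.63 for Lilr4b, 0.36 for Pirb and 0.24 for Sirpa. With DESeq2 size factors it was 0.20 for Lilr4b, 0.64 for Pilra and 0.23 for Sirpa. With TMM factors Sirpa had 0.19 over filtered genes and 0.21 over all genes, and with a pseudocount of 0.1 Pilra had 0.67. At 5 TPM, 3 relatives and 5664 protein-coding genes remained. The cause of these differences was not tested.

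Leaving out 1 library at a time moved the spread, to 0.15 to 0.57 for Lilrb4a, 0.073 to 0.41 for Lilr4b, 0.085 to 0.20 for Pirb, 0.083 to 0.44 for Pilra and 0.016 to 0.12 for Sirpa. The lowest of these came without replicate 2 for Lilrb4a, Lilr4b and Sirpa, without replicate 1 for Pirb and without replicate 3 for Pilra. Mean levels ranged from 888.9 to 1295 TPM for Lilrb4a and from 730.8 to 998.3 TPM for Lilr4b. No paired analysis was possible because there is 1 group. Depth limits Pilra, at 13.1 to 33.5 counts, and the Sirpb genes.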
